A study of Mus musculus with 14 samples.

Results

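The genes of the MHC class II pathway were followed in 14 mouse RNA-seq libraries. The group holds 10 genes, chosen by name, of the 52550 genes in the count table: the class II chains H2-Aa, H2-Ab1 and H2-Eb1, the invariant chain Cd74, the peptide loading chains H2-DMa, H2-DMb1, H2-DMb2, H2-Oa and H2-Ob, and the transactivator Ciita. The libraries came from C57BL/6 mice of 8 to 20 weeks: 4 of WT HSPCs (hematopoietic stem and progenitor cells, enriched from femur and tibia marrow), 4 of HSPCs from Mir139KO mice, which lack the microRNA gene Mir139, and 6 of MLL-AF9 cells. MLL-AF9 cells were WT HSPCs kept overnight with SCF, GM-CSF and the interleukins IL-3 and IL-6, transduced with a retrovirus carrying the leukemia fusion gene MLL-AF9, drug-selected and replated in semi-solid medium, with pMSCV-MLL-AF9-neo in 3 cultures and pMSCV-MLL-AF9-puro in the other 3 (here neo 1 to 3 and puro 1 to 3). After replating, the study's methods describe growth of these cells in serum-containing medium with the same factors. HSPCs were taken as lysed on isolation, which the labels do not state for each sample. No HSPCs cultured without MLL-AF9 were measured, so the fusion gene, the culture and the selection cannot be told apart in any comparison of MLL-AF9 cells with HSPCs, and likewise the vector, its drug and the cultures that carried it in puro against neo. The labels do not say which libraries came from separate mice or transductions, so that p-values measure only the spread between these samples.

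MHC class II molecules present peptides taken from endocytosed proteins to helper T cells, and are made mainly by B cells, dendritic cells and macrophages. An alpha and a beta chain (H2-Aa with H2-Ab1, and the beta chain H2-Eb1 of the second molecule) assemble on the invariant chain Cd74, which fills the groove until H2-DM, a dimer of H2-DMa with an H2-DMb chain, exchanges its remnant for peptide, whereas H2-O (H2-Oa with H2-Ob) restrains H2-DM. Most are switched on through Ciita, which binds no DNA itself but docks on RFX, CREB and NF-Y proteins at the X and Y boxes of their promoters.

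Apart from Cd74 and Ciita, the latter at chr16:10480059-10528418 (GRCm38, plus strand), the genes lie together on chromosome 17, from H2-Oa at chr17:34092340-34095234 to H2-Eb1 at chr17:34305867-34316674. RefSeq promoter windows (GRCm38.p6, 250 bases before to 50 after the start) were at hand for 7 of the 10 genes, and were searched for TGATTGG, a form of the Y box that NF-Y binds, with ATTGG as its core. These letters stood on the gene's own strand in 6 of the 7, between 45 and 92 bases before the start, and on neither strand of the windows of H2-DMa. H2-DMa has 2 windows, of which 1 holds the shorter core ATTGG on its own strand, as 37.4% of all windows do on either strand. Of all 32851 windows in the table, 4.01% hold them on the own strand, 4.08% on the other strand and 7.82% on either. The 130 bases before the RefSeq start of those 6 genes are shown, 5′ to 3′ on the gene's strand with the match in capitals, because Ciita acts through this element, and genes with it ran from the steepest fall in MLL-AF9 cells (H2-Eb1) to no call (H2-Ob):
H2-Aa, chr17:34287824-34287953, minus strand: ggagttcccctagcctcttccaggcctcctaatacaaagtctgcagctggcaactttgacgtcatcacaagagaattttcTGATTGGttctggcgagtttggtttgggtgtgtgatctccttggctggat
H2-Eb1, chr17:34305737-34305866, plus strand: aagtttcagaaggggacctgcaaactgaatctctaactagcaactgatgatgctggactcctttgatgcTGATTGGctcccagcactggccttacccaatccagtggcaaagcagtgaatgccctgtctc
H2-DMb1, chr17:34153061-34153190, plus strand: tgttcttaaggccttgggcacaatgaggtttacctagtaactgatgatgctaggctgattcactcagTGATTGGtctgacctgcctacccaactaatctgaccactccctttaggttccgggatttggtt
H2-DMb2, chr17:34145119-34145248, plus strand: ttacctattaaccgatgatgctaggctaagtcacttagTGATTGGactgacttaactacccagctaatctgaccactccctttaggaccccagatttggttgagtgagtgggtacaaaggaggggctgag
H2-Oa, chr17:34092249-34092378, plus strand: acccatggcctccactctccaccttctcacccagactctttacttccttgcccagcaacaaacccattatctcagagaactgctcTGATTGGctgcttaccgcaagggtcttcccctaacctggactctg
H2-Ob, chr17:34238775-34238904, plus strand: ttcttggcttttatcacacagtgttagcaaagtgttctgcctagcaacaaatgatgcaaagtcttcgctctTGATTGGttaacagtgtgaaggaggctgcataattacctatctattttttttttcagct
Over the 107 bases centred on the match, H2-DMb1 and H2-DMb2 were identical at 93 bases without gaps (86.9%), whereas the other pairs shared 24.3% to 35.5%. H2-DMb1 and H2-DMb2 are near-identical copies, and the division of reads between them is uncertain. A match describes the letters and is not a measured binding site.

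Total counts ran from 35016668 to 45877994 per library, at which 3 counts correspond to between 0.0654 and 0.0857 CPM (counts-per-million). Levels are given as CPM after scaling by the trimmed mean of M values (TMM). A single transcript, Gm26917, took 17.0% to 35.4% of all counts in WT HSPCs, 21.3% to 35.1% in Mir139KO HSPCs and 7.55% to 10.4% in MLL-AF9 cells, and with a limit at 25% each genotype had 2 HSPC libraries over and 2 under it. Mir139 had no count in any library and its host gene Pde2a at most 2, so that the knockout could not be checked with them. Progenitor markers (Kit, Cd34, Gata2, Cd48, Ly6a and Myb) summed to 529 to 746.5 CPM in WT HSPCs, with B cell, dendritic cell, monocyte, plasma cell and T cell markers also present. Of the 10 genes, 9 passed the filter on low counts in the comparisons with HSPCs.

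H2-Oa was listed at 0 in every library. Its whole span lies within that of BC051537 on the opposite strand (chr17:34083843-34095309), and 97.4% of the 1261 protein-coding genes with no base outside other genes were listed at 0 in all libraries, against 20.2% of the 12012 wholly outside. The level of H2-Oa could therefore not be read from these counts. Of the other genes, Ciita had 46.5% of its span outside other genes (it overlaps Dexi), H2-Eb1 79.6% and H2-DMa 80.9%, so that reads at their overlaps may be missing or shared, and the remaining 6 had 99.0% to 100%. In the lists of related genes below, Ms4a1, Irf8, B2m and Psmb10 likewise had no base outside other genes and were listed at 0. Their levels could not be read either, and they were not tested.

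In HSPCs the pathway was led by the invariant chain. Per kilobase of exon, Cd74, a gene of chromosome 18, was at 102 ± 30.6 CPM (SD, n = 4) in WT HSPCs and did not overlap with any other gene of the group. H2-DMa (26.2 ± 12.99), H2-Ab1 (20.4 ± 8.07), H2-DMb1 (19.2 ± 5.49), H2-Eb1 (14.6 ± 7.07) and H2-Aa (9.90 ± 3.82 CPM per kilobase) followed, each overlapping with its neighbour in this order. Below them H2-DMb2 (3.22 ± 0.729), H2-Ob (1.36 ± 0.0518) and Ciita (0.107 ± 0.0445 CPM per kilobase) each stood apart from the gene above. The regulator of the pathway was thus its least abundant transcript with a count.

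This balance was alike in both HSPC genotypes and different in MLL-AF9 cells. Cd74 made up 49.6% to 53.6% of the summed CPM per kilobase of the group in WT HSPCs and 50.9% to 55.7% in Mir139KO HSPCs, but 2.79% to 36.0% in MLL-AF9 cells. H2-DMb1, a loading chain, held 8.73% to 10.9% in WT HSPCs and 42.8% to 72.7% in MLL-AF9 cells, where it had the highest mean level (8.76 ± 4.09 CPM per kilobase, n = 6). The sum itself was 116.8 to 261.9 CPM per kilobase in WT HSPCs, 142.9 to 355.4 in Mir139KO HSPCs and 8.415 to 29.98 in MLL-AF9 cells. The sums of MLL-AF9 cells thus did not reach those of any HSPC library.

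**Figure D1:**
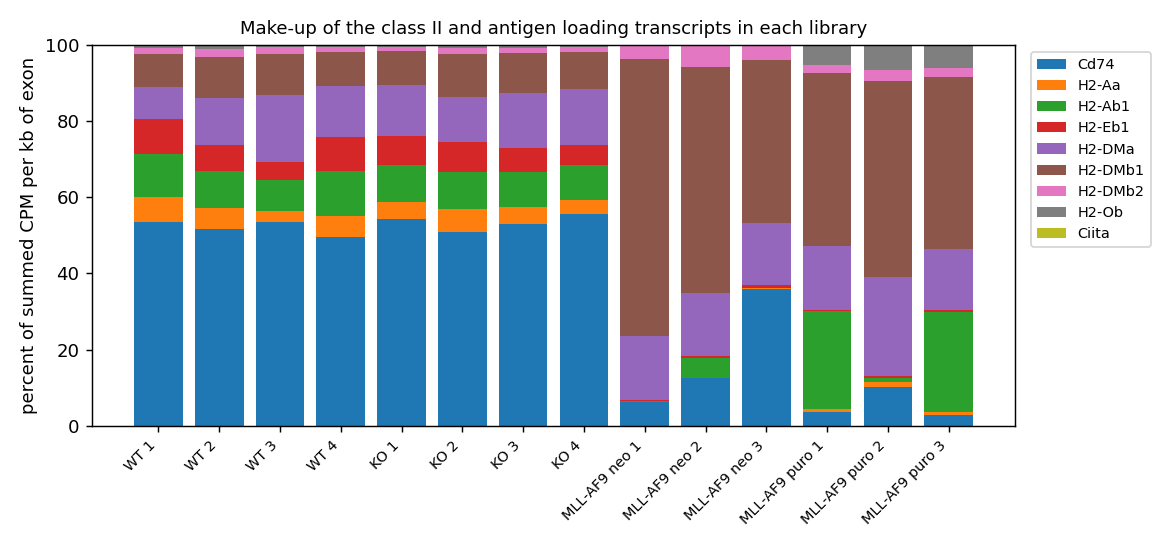
Share of each gene (percent, vertical axis) in the summed CPM per kilobase of exon of the MHC class II genes, one stacked bar for each of the 14 libraries. Cd74 makes up 49.6% to 55.7% of the sum in the 8 HSPC libraries and 2.79% to 36.0% in the 6 MLL-AF9 cultures, where H2-DMb1 holds 42.8% to 72.7%.

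The first question was whether loss of Mir139 changed these genes in HSPCs. Cd74 was at 169, 101, 199 and 218 CPM in WT HSPCs 1 to 4 and at 324, 141, 127 and 264 CPM in Mir139KO HSPCs 1 to 4. H2-Ab1 was at 53.9, 29.2, 47.0 and 79.2 CPM in WT HSPCs and at 90.2, 41.7, 33.6 and 64.9 CPM in Mir139KO HSPCs. The genotypes overlapped for both genes, as they did for all 9 that were tested. By edgeR's quasi-likelihood test with Benjamini-Hochberg adjustment, 0 of the 9 passed an adjusted p of 0.05, where 0% of the 15056 genes tested did.

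The log2 fold changes of Mir139KO over WT HSPCs were 0.31 for Cd74 (SE 0.370), 0.07 for H2-Aa (SE 0.354), 0.13 for H2-Ab1 (SE 0.391) and 0.11 for H2-Eb1 (SE 0.438). For the loading chains they were 0.30 for H2-DMa (SE 0.438), 0.26 for H2-DMb1 (SE 0.327), 0.03 for H2-DMb2 (SE 0.336) and 0.03 for H2-Ob (SE 0.237). Ciita had -0.37 (SE 0.383), from 1.53, 1.07, 0.495 and 0.992 CPM in WT HSPCs and 1.14, 0.541, 0.782 and 0.749 CPM in Mir139KO HSPCs. All 9 adjusted p were 0.9999, and differences within these errors were not detectable with 4 libraries a genotype. Over all genes 86 (0.571%) had an unadjusted p under 0.05, and DESeq2 called 0 genes, with 90 under that p. These are far fewer than such a threshold gives on average when nothing differs. Both tests were thus conservative here, and the absence of calls does not show equal levels.

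Several class II genes differed with the Gm26917 share. Libraries over the 25% limit had higher Cd74 (log2 difference 0.90, adjusted p = 0.001102), H2-Ab1 (0.84, adjusted p = 0.01283), H2-DMa (1.24, adjusted p = 4.284e-05), H2-DMb1 (0.78, adjusted p = 0.0003467) and H2-DMb2 (0.68, adjusted p = 0.008733), in an edgeR fit with genotype as a covariate. These are 5 of the 9 genes tested, where 32.9% of the 15056 genes were called higher. H2-Aa (0.41), H2-Eb1 (0.70), H2-Ob (0.15) and Ciita (-0.17) did not pass the test. H2-Ob was the steadiest of the genes, at 6.68 to 8.92 CPM over all 8 HSPC libraries. The genotype difference was not shown to depend on this share for any gene (edgeR interaction, adjusted p 0.3223 to 0.9126, lowest unadjusted p 0.06137 for Ciita).

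**Figure D2:**
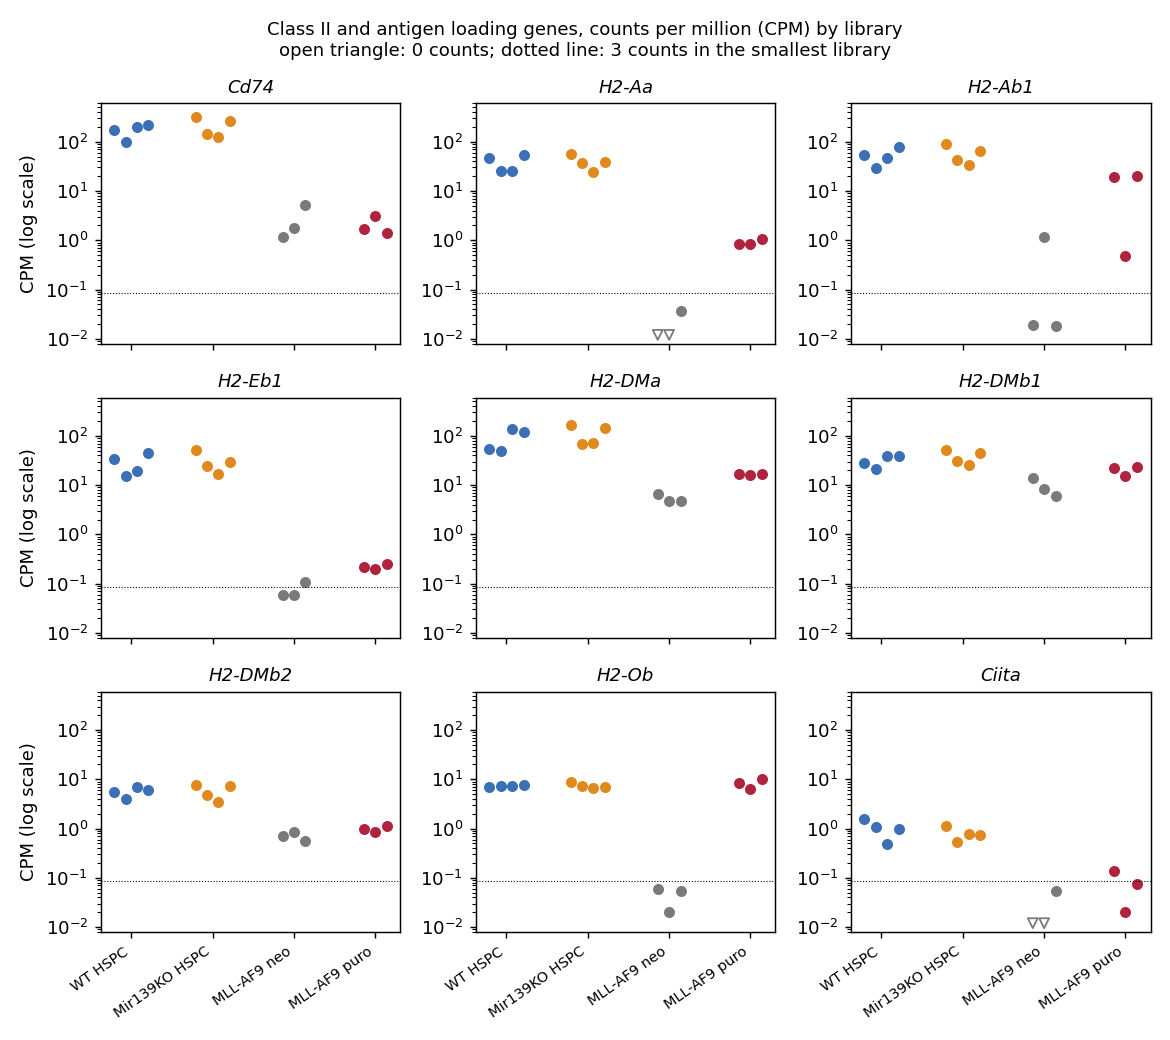
Level of each MHC class II gene in CPM on a log axis, one point per library, by group (WT HSPCs, Mir139KO HSPCs, MLL-AF9 neo, MLL-AF9 puro); open triangles are libraries with 0 counts and the dotted line is the level of 3 counts in the smallest library. The HSPC genotypes overlap in every panel, Cd74 and H2-Eb1 are lower in all 6 MLL-AF9 cultures, and H2-Ob is near the dotted line in neo but at HSPC level in puro cultures.

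MLL-AF9 cells had far less RNA of the class II chains and of the invariant chain than WT HSPCs. In a bulk library, fewer cells of a type and less RNA per cell cannot be told apart. By edgeR's quasi-likelihood test, 7 of the 9 genes tested fell (adjusted p under 0.05), where 29.4% of all 17077 genes tested did, and none rose. The MLL-AF9 and WT libraries did not overlap, with the MLL-AF9 cultures lower, for 7 of the 9, against 24.5% of all genes. The median log2 fold change of the 9 genes was -3.08, and that of all genes tested 0.14. The count of genes that fell was 9 with the neo and 6 with the puro cultures alone, and with WT libraries of low or of high Gm26917 share alone it was 6 or 7. The share of all genes called lower in each of these fits was not taken, so these counts have no background beside them. The 7 that fell and the 7 that did not overlap are not the same list: H2-DMb1 fell with overlap, and H2-Ab1 did not overlap without passing the test.

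Cd74, the chaperone and groove plug of new class II molecules, was at 1.18, 1.76 and 5.11 CPM in neo 1 to 3 and at 1.70, 3.04 and 1.40 CPM in puro 1 to 3, against 101 to 218 CPM in WT HSPCs. All 6 cultures were far under the lowest WT library. Its log2 fold change was -6.21 (SE 0.466, adjusted p = 1.849e-06), a level 74.2-fold lower. The beta chain H2-Eb1 was at 33.8, 15.3, 19.4 and 45.3 CPM in WT HSPCs, at 0.0582, 0.0594 and 0.110 CPM in neo and at 0.220, 0.200 and 0.247 CPM in puro cultures. With 3 to 13 counts per culture it was close to the 3-count level, and the change was the largest of the group, at -7.58 on the log2 scale (SE 0.534, adjusted p = 1.19e-06). The summed level in WT HSPCs was 186 times that in MLL-AF9 cells.

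The alpha chain H2-Aa was at 46.6, 25.005, 25.5 and 53.3 CPM in WT HSPCs, had 0, 0 and 2 counts in neo 1 to 3 and stood at 0.859, 0.840 and 1.06 CPM in puro 1 to 3. It fell in both vectors but not to the same level. The log2 fold change over all 6 cultures was -6.35 (SE 1.08, adjusted p = 0.00042). Its partner H2-Ab1 was at 0.0194, 1.17 and 0.0183 CPM in neo 1 to 3 and at 19.1, 0.480 and 20.1 CPM in puro 1 to 3, against 29.2 to 79.2 CPM in WT HSPCs. Every culture was thus below every WT library, over a range from a single count to 1060 counts. With that spread its value of -2.95 on the log2 scale (SE 1.33) had an adjusted p of 0.0698. It passed the test in the neo cultures alone (-7.04, adjusted p = 0.001112) and did not in the puro cultures alone (-1.96, adjusted p = 0.1041). Without puro 1 it was -3.58 (adjusted p = 0.04549) and without puro 3 -3.64 (adjusted p = 0.0423).

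Among the loading chains, H2-DMa, the alpha chain of the peptide exchanger, was at 54.3, 49.5, 136 and 121 CPM in WT HSPCs, at 6.53, 4.81 and 4.78 CPM in neo and at 16.6, 15.9 and 16.5 CPM in puro cultures. Both vectors were under the lowest WT library, and the log2 fold change was -3.08 (SE 0.477, adjusted p = 0.000224). H2-DMb2 was at 5.48, 3.96, 6.99 and 6.06 CPM in WT HSPCs and at 0.568 to 1.14 CPM in MLL-AF9 cells (log2 fold change -2.74, SE 0.333, adjusted p = 4.3e-05). The other beta chain, H2-DMb1, was at 27.6, 21.4, 39.9 and 39.8 CPM in WT HSPCs, at 13.6, 8.38 and 6.08 CPM in neo and at 22.0, 15.4 and 22.9 CPM in puro cultures, so that 2 puro cultures overlapped with WT. H2-DMb1 thus had the smallest change of the genes that fell (log2 fold change -1.15, SE 0.383, adjusted p = 0.0201), and this call was lost in the puro cultures alone (-0.67, adjusted p = 0.1451), against the low-share WT libraries (-0.78, adjusted p = 0.2091), with scaling to total counts (-0.45, adjusted p = 0.3344), with correction for GC content (-0.44, adjusted p = 0.2632) and without WT 4 (-1.05, adjusted p = 0.0542).

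H2-Ob, a chain of the H2-DM inhibitor, was split by vector. It was at 7.05, 7.17, 7.42 and 7.68 CPM in WT HSPCs, at 0.0582, 0.0198 and 0.0550 CPM in neo 1 to 3 and at 8.25, 6.48 and 9.95 CPM in puro 1 to 3. The neo cultures had at most 3 counts each, and the puro cultures spanned the WT libraries. Over all 6 cultures the log2 fold change was -0.85 (SE 1.21, adjusted p = 0.5582), which describes neither set: in the neo cultures alone it was -7.26 (adjusted p = 1.586e-05) and in the puro cultures alone 0.17 (adjusted p = 0.6809).

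Ciita, the switch of the pathway, had 73, 46, 15 and 27 counts in WT HSPCs, 0, 0 and 3 counts in neo and 7, 1 and 4 counts in puro cultures. The cultures were all below 0.495 CPM, the lowest WT level. Its log2 fold change was -4.34 (SE 0.740, adjusted p = 0.000417), and the summed level in WT HSPCs was 22.4 times that in MLL-AF9 cells (95% exact interval 13.2 to 41.0, from 161 and 15 counts, for counting error only). Ciita was low in both sets of libraries, and its differences rest on few reads.

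**Figure D3:**
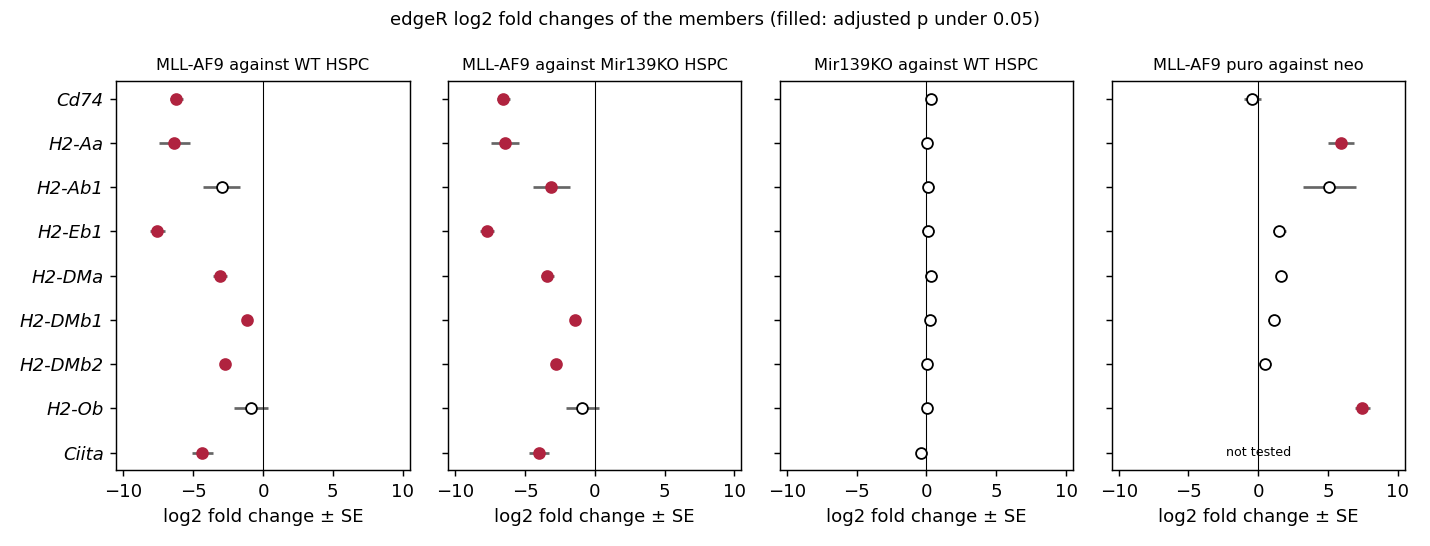
Log2 fold change (horizontal axis) with its standard error for each MHC class II gene in MLL-AF9 against WT, MLL-AF9 against Mir139KO, Mir139KO against WT and puro against neo; filled symbols passed an adjusted p of 0.05 in edgeR. Of the 9 genes tested, 7 passed against WT and 8 against Mir139KO HSPCs, 0 between genotypes, and H2-Aa and H2-Ob of 8 between vectors.

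Against Mir139KO HSPCs, a comparison that shares its MLL-AF9 libraries with the one above, 8 of the 9 genes fell, where 31.9% of 16953 genes tested did. The log2 fold changes were -6.54 for Cd74, -6.43 for H2-Aa, -7.70 for H2-Eb1, -3.40 for H2-DMa, -1.43 for H2-DMb1, -2.79 for H2-DMb2 and -4.00 for Ciita. H2-Ab1 stood at the threshold (-3.11, SE 1.31, adjusted p = 0.04964) and lost its call without any one of 7 libraries: Mir139KO 1, 2, 3 or 4, neo 1, neo 2 or puro 2 (adjusted p 0.05212 to 0.116). It also lost it in 7 of the 13 other alternatives. H2-DMb1 lost its call with total counts (-0.61, adjusted p = 0.1698), with GC correction (-0.67, adjusted p = 0.09443) and against the Mir139KO libraries of low Gm26917 share (-0.98, adjusted p = 0.1113). H2-Ob again had no call (-0.89, adjusted p = 0.5209).

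The vectors were then set against each other within MLL-AF9 cells. Of the 8 genes tested, edgeR's test called 2 higher in puro cultures, H2-Aa and H2-Ob, where it called 0.564% of 16503 genes higher. The puro cultures lay wholly above the neo cultures for 5 of the 8 (H2-Aa, H2-Eb1, H2-DMa, H2-DMb1 and H2-Ob), against 11.9% of all genes. The median log2 fold change was 1.56 for the 8 genes and -0.02 for all genes tested. Cd74 was not among them: its log2 fold change was -0.41 (SE 0.630, adjusted p = 0.8166) and the vectors overlapped.

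H2-Ob had 3, 1 and 3 counts in neo 1 to 3 and 413, 324 and 524 in puro 1 to 3 (log2 fold change 7.46, SE 0.544, adjusted p = 0.006943). The level ratio of the summed counts was 185 (95% exact interval 89.4 to 460, counting error only). Every puro culture was above every neo culture by over 100 times in counts. H2-Aa had 0, 0 and 2 counts in neo and 43, 42 and 56 in puro cultures (log2 fold change 5.94, SE 0.918, adjusted p = 0.04942), with a level ratio of 72.3 (19.6 to 603). Both calls rest on single libraries in a design of 3 against 3: H2-Ob lost its call without neo 2, neo 3, puro 1 or puro 3 (adjusted p 0.05305 to 0.06627) and H2-Aa without any of these or neo 1 (adjusted p 0.09343 to 0.1867), while in each case the fold stayed over 5 on the log2 scale.

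The other class II genes did not pass between vectors. H2-DMa, with tight values in both vectors, stood at 1.602 (SE 0.255, adjusted p = 0.0509) on the log2 scale, and it passed without puro 2 (1.66, adjusted p = 0.02497), with DESeq2 (adjusted p = 1.09e-07), with GC correction (adjusted p = 0.03693) and with Gm26917 left out (adjusted p = 0.0495). H2-Eb1 had 1.52 (SE 0.485, adjusted p = 0.2302), H2-DMb1 1.11 (SE 0.378, adjusted p = 0.2657) and H2-DMb2 0.48 (SE 0.403, adjusted p = 0.6618). Ciita, with 3 counts in neo and 12 in puro cultures, was not tested, and its level ratio was 4.10 (95% exact interval 1.11 to 22.7, counting error only). The RNA of at least 1 chain each of H2-A, H2-DM and H2-O, and of H2-Eb1, thus lay apart by vector without overlap, and that of Cd74 did not.

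H2-Ab1 differed most between cultures of one vector. Puro 1 and puro 3 had 955 and 1060 counts, and puro 2 had 24, so that their levels were 39.8 and 41.9 times that of puro 2, and among neo cultures neo 2 had 59 counts and the other two 1 each. The test between vectors gave 5.09 (SE 1.89, adjusted p = 0.3071), with overlap, and passed with all 14 samples in one fit (adjusted p = 0.03794). Most of the other genes differed little between these cultures: puro 1 and 3 were 1.02 to 1.54 times puro 2 for H2-Aa, H2-Eb1, H2-DMa, H2-DMb1, H2-DMb2 and H2-Ob, and 0.559 and 0.462 times for Cd74. Ciita stood at 7.0 and 3.8 times puro 2, in the direction of H2-Ab1, from only 7, 1 and 4 counts in puro 1 to 3. The chains of one dimer were thereby uncoupled, since H2-Ab1 per kilobase was 1.71 to 2.73 times H2-Aa in WT HSPCs, 32.9 and 27.99 times in puro 1 and 3, and 0.845 times in puro 2.

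Of the 10 monocyte and macrophage markers, 9 were at a higher level in both puro 1 and puro 3 than in puro 2, and Ly6c2 was lower in both. The split was not particular to this list among those described below. It held for 6 of 7 turnover and costimulation genes, 4 of 4 MLL-AF9 markers and 6 of 9 dendritic cell markers. It also held for 5 of 7 endolysosomal genes, 5 of 8 B cell markers, 6 of 10 regulators of Ciita and 7 of 13 class I genes. For progenitor markers it held for 3 of 6 and for plasma cell markers for 2 of 4. It held for 0 of 7 enhanceosome genes, 0 of 5 T cell markers and 0 of 2 other class II loci. The share of all genes with this split was not computed, so these counts have no background beside them. The complement genes C1qa, C1qb and C1qc had 14, 124 and 119 counts in puro 1 and 13, 116 and 137 in puro 3, but 0 in puro 2 and at most 4 in any neo culture. Csf1r, the receptor of the macrophage growth factor, was at 71.1 and 65.0 CPM in puro 1 and 3, 8.40 CPM in puro 2 and 2.82 to 6.83 CPM in neo cultures. Summed over the list, the split within puro was small, with 972, 782.9 and 1030 CPM in puro 1 to 3, against 259.7 to 385.6 CPM in neo cultures. Between vectors 1 of 7 tested markers was called, Ccr2, a chemokine receptor of monocytes (log2 fold change 6.30, adjusted p = 0.02605), where 0.564% of all genes were called higher, and 3 of the 7 lay wholly higher in puro, against 11.9% of all genes. The part of these cells or genes in the level of H2-Ab1 was not tested. Puro 1 and 3 were also the most alike of the cultures, with a Pearson r across genes of 0.9948 against 0.9229 to 0.940 for puro 1 with the others, yet their counts differed beyond sampling noise (chi-square per degree of freedom 8.33) and both were kept as samples. With puro 1 and 3 summed into 1 sample, neither H2-Ob (adjusted p = 0.0547) nor H2-Aa (adjusted p = 0.1822) was called.

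**Figure D4:**
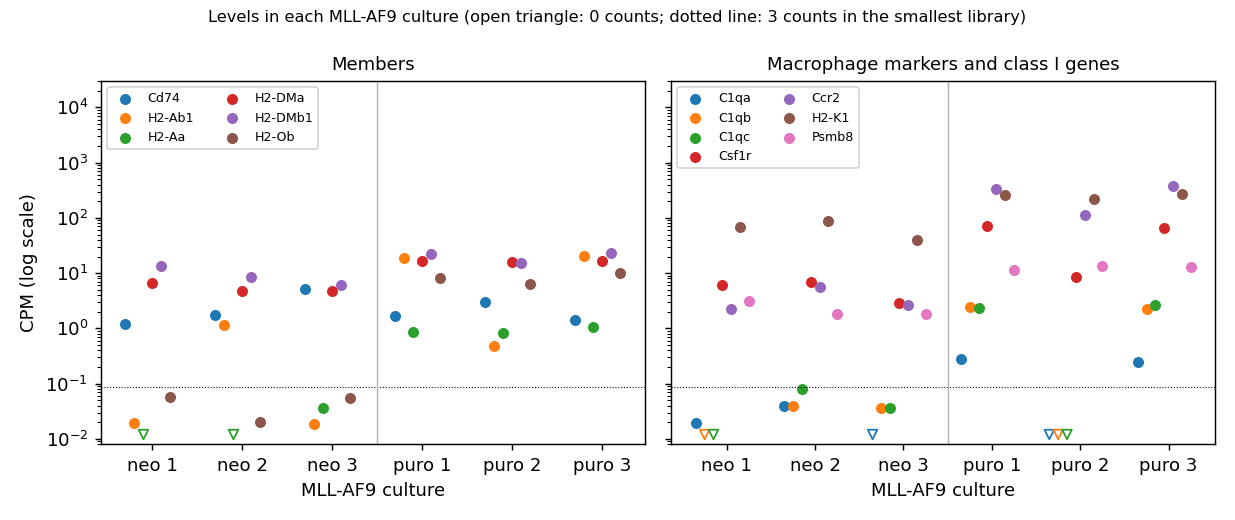
Level in CPM, on a log axis, of MHC class II genes (left) and of macrophage and class I genes (right) in each of the 6 MLL-AF9 cultures. H2-Ob and H2-Aa separate all puro from all neo cultures, whereas H2-Ab1, C1qb, C1qc and Csf1r are high in puro 1 and puro 3 and low in puro 2.

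The lists of related genes are read against all genes tested in MLL-AF9 cells against WT HSPCs, of which 32.8% were called higher and 29.4% lower. Of 7 enhanceosome genes, 3 fell in MLL-AF9 cells against WT HSPCs: the NF-Y subunit Nfya (log2 fold change -1.35), which belongs to the complex that binds the Y box letters shown above, and the RFX subunits Rfxap (-1.07) and Rfxank (-0.93). Creb1, which binds next to RFX, rose (2.22), and the other 3 did not pass. Among 9 tested regulators of Ciita, 4 fell, namely Prdm1, its repressor in plasma cells (-1.98), the interferon regulatory factors Irf4 (-1.82) and Irf1 (-1.73), and the interferon gamma receptor chain Ifngr2 (-1.04), and none rose. The list medians were -0.32 and -0.28 and the counts were not tested against the shares over all genes. By vector, none of the tested genes of either list was called.

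Of 7 endolysosomal processing genes 1 rose, the protease Ctsl (2.98), and 1 fell, the thiol reductase Ifi30 (-2.91), with a list median of -0.39. Of 7 genes of class II turnover and costimulation, the costimulators Cd86 (2.96) and Cd80 (2.88) and the class II ubiquitin ligase March1 (2.17) rose, whereas Cd40 (-6.45) and Cd83 (-4.76) fell. March1 rose with overlap (adjusted p = 0.04496), at 2.71 to 16.5 CPM in WT HSPCs, 6.96 to 16.3 in neo and 10.3 to 90.2 in puro cultures. Cd86, Cd80 and March1 were also lower in HSPC libraries over the Gm26917 limit (log2 difference -2.12, -1.34 and -1.59). Cd40 and Cd83 did not pass there, and the share of all genes called lower there was not taken. The MHC class I pathway fell in 7 of 11 tested genes and rose in none, with a median of -1.76: Tap1, a peptide transporter chain, by 3.03 on the log2 scale, the immunoproteasome subunits Psmb8 and Psmb9 (-2.56 and -2.37), and the heavy chain H2-K1 (-2.15). In HSPC libraries over the Gm26917 limit Tap1, Psmb8, Psmb9 and H2-K1 were higher (log2 difference 1.14, 1.15, 0.95 and 0.80), where 32.9% of all genes were called higher. Pdia3 and Erap1, class I genes not called against WT, were lower there (-1.65 and -1.37). Between vectors 1 of the 11 tested class I genes was called, Psmb8, higher in puro (log2 fold change 2.48, adjusted p = 0.03277), where 0.564% of all genes were. The puro cultures lay wholly above the neo cultures for 8 of the 11 class I genes (11.9% of all genes), with a median log2 fold change of 1.45, beside 5 of 8 and 1.56 for the class II genes. This was not particular to these lists. Of the progenitor markers 3 of 6 lay wholly higher in puro (median 2.59), and of the MLL-AF9 markers 3 of 4 (1.54), with none called. Of 4 tested B cell markers 0 did (-0.61). The class II locus H2-Eb2 did not pass the filter, with a level of at most 0.629 CPM. H2-Ea-ps, annotated as a polymorphic pseudogene and wholly outside other genes, was listed at 0 in every library.

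Most markers of cells that carry class II were called lower too. The 7 tested B cell markers all fell (among them Ebf1 -6.54, Pax5 -6.43 and Blnk -4.81), and the 8 listed summed to 42.8 to 79.0 CPM in WT HSPCs, 39.8 to 95.0 CPM in Mir139KO HSPCs and 2.46 to 7.27 CPM in MLL-AF9 cells. Ms4a1 was listed at 0 throughout and, like H2-Oa, could not be read from these counts. Of 9 dendritic cell markers 6 fell (among them Siglech -7.87, Cd209a -5.33 and Flt3 -5.27) and Ccr9 rose (2.90), with sums of 92.1 to 119.5 CPM in WT HSPCs, 82.9 to 120.0 CPM in Mir139KO HSPCs and 3.13 to 23.4 CPM in MLL-AF9 cells. Of 10 monocyte and macrophage markers 6 fell (C1qa -8.09, C1qb and C1qc -4.97 each, Csf1r -3.71) and Adgre1 rose (1.47), with sums of 941.7 to 1737 CPM in WT HSPCs, 1132 to 1998 CPM in Mir139KO HSPCs and 259.7 to 1030 CPM in MLL-AF9 cells. The sums of puro 1 and puro 3 (972 and 1030 CPM) lay within the WT range. The part of these cells in the lower class II levels was not tested.

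Other cell types changed as well. Plasma cell markers fell in 3 of 4 (Jchain -12.0, Tnfrsf17 -4.00 and Sdc1 -3.35) while Xbp1 rose (0.75), and all 5 T cell markers fell (Cd3e -10.8, Cd8a -7.57, Cd3g -7.09 and Cd4 -5.78), from 30.7 to 54.7 CPM in sum to 0.420 to 1.78 CPM. Progenitor markers fell in 3 of 6 (Cd34 -5.50, Gata2 -5.00 and Kit -1.56), and Hoxa10 (6.72), Hoxa9 (5.06) and Meis1 (4.55), genes that MLL fusions are known to keep on, rose in 3 of 4. In Mir139KO against WT HSPCs, none of the genes of these lists was called.

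The genes whose pattern was most like that of the class II chains were sought by the Pearson r of log2 CPM with the mean of Cd74, H2-Aa, H2-Ab1 and H2-Eb1. Over all 14 libraries these were Cyp4f18 (r = 0.9954), Galnt10 (0.9936), Rgs3 (0.9918), Slc43a1 (0.9913) and Capn5 (0.9901), of 8538 genes, an order set mainly by the gap between HSPCs and MLL-AF9 cells. Over the 8 HSPC libraries alone they were Slc11a1 (r = 0.9447), Lst1 (0.933), Hbb-bt (0.9278), Tinagl1 (0.9208) and Ifi27l2a (0.9204), of 8492 genes, and these libraries also share the Gm26917 split. The lists have no gene in common.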

How the data were processed

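RNA-seq of rRNA-depleted total RNA was analysed from 14 libraries (4 WT HSPC, 4 Mir139KO HSPC, 3 neo and 3 puro MLL-AF9), grouped by the labels. The deposited values are raw counts per gene, without normalization. Per the study's methods and the submitters' processing notes, the authors mapped reads to GRCm38 with STAR 2.5.3e and counted them with featureCounts 1.6.0 on GENCODE annotation. The strand setting is not given in the sources used here, so that overlapping and antisense genes are uncertain. Both deposited tables held equal counts in all 735700 shared cells, and 10 columns of another series were not used. Gene positions and exon lengths came from GENCODE M21 (52403 of 52550 identifiers matched), sequences from RefSeq.

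Each comparison was fitted on its own samples with edgeR 4.0.16 in R 4.3.3 (TMM, robust quasi-likelihood F test), keeping genes that reached 10 counts in as many samples as the smaller arm has. P-values were Benjamini-Hochberg adjusted over all genes tested, with calls under 0.05 and SE = |log2 fold change| / sqrt(F). The adjusted p in the report come from this test unless DESeq2 is named. Log2 CPM used a prior count of 2. Count ratios carry 95% exact conditional intervals. The scripts were tested on simulated data. Alternatives were DESeq2 1.42.0, other scalings, no filter, all 14 samples in one fit, GC correction, a replicate block, Gm26917 left out, subsets by Gm26917 share or vector, puro 1 and 3 summed, and each library left out. The text names all 10 genes. One gene of another list is not reported here. It names up to 4 called genes per other list, by fold change against WT, and the 5 most alike genes. Also named are genes listed at 0, some further called genes, and genes with values beside H2-Ab1 chosen after their values were seen. The genes, lists and tests were chosen with earlier results of these data known.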

Additional observations from a re-analysis of the deposited data

Results flagged for a closer look

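The response of H2-Aa and H2-Ob differed between MLL-AF9 cells made with different vectors. The log2 fold change of puro over neo cultures was 5.94 for H2-Aa (0.859, 0.840 and 1.06 CPM in puro, 0, 0 and 2 counts in neo) and 7.46 for H2-Ob (8.25, 6.48 and 9.95 CPM in puro, 0.0582, 0.0198 and 0.0550 CPM in neo), with an adjusted p of 0.04942 and 0.006943 in edgeR's test of the difference and 3 of 3 puro cultures above 3 of 3 neo cultures. H2-Aa kept its call in 6 of 9 other alternatives and in 1 of 6 fits without a library, and H2-Ob in 8 of 9 and 2 of 6. A library standing apart was sought by Dixon's criterion in WT HSPCs, Mir139KO HSPCs and all 6 MLL-AF9 cultures together (27 sets, 0 found), since groups of 3 were too small, so that cultures within a vector were not tested. The criterion looks for a single library at either end. It could not flag libraries that stand apart together, as puro 1 and puro 3 do for H2-Ab1.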

How the results depend on the processing

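Each library was left out in turn, and the tool, scaling, filter and samples were changed one at a time. The number of genes called lower against WT HSPCs was 6 to 9 and against Mir139KO HSPCs 6 to 9, and 0 genes were called between genotypes throughout. Cd74, H2-Aa, H2-Eb1, H2-DMa, H2-DMb2 and Ciita kept their calls against both HSPC groups in every alternative run. Scaling to total counts moved the median of all genes by 0.569 against WT and 0.696 against Mir139KO HSPCs, and GC correction by 0.277 and 0.287. The calls of H2-DMb1 and H2-Ab1 depend on such choices, as given beside their values, and H2-Ob was called lower with all 14 samples in one fit (-3.55 against WT). That fit averages the log2 changes of neo and puro cultures, so its value for H2-Ob also describes neither set. Between vectors the count was 1 with size factors by relative log expression and 1 with total counts, H2-Aa being lost (adjusted p = 0.05143 and 0.05478), 0 with puro 1 and 3 summed, 3 with DESeq2, which gained H2-DMa, and 0 to 3 with a library left out (0 without neo 2, neo 3, puro 1 or puro 3).

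Signs turned for values without a call: H2-Ob against WT and Mir139KO HSPCs was 0.17 and 0.13 in puro cultures alone. Mir139KO over WT HSPCs gave -0.093, -0.0064, -0.051, -0.10 and -0.080 for H2-Aa, H2-Ab1, H2-Eb1, H2-DMb2 and H2-Ob with total counts, -0.21, -0.13, -0.22 and -0.19 for H2-Aa, H2-Ab1, H2-Eb1 and H2-DMb2 in low-share libraries, -0.018 and -0.016 for H2-Ab1 and H2-DMb2 with GC correction, -0.014 for H2-DMb2 with the share as covariate, and 0.32 for Ciita in high-share libraries. With a library left out it ran from -0.17 to 0.29 for H2-Aa, -0.17 to 0.41 for H2-Ab1, -0.26 to 0.43 for H2-Eb1, -0.14 to 0.21 for H2-DMb2 and -0.068 to 0.077 for H2-Ob, and puro over neo for Cd74 from -0.75 to 0.45. The causes were not tested.

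Replicate numbers did not pair the samples (correlation of same-numbered deviations -0.652 to 0.719 between genotypes and -0.342 to 0.475 between vectors). With a replicate block 6 genes were called against WT, 7 against Mir139KO, 0 between genotypes and 2 between vectors, H2-DMb1 against WT had -1.01 (adjusted p = 0.06825), and H2-DMb2 between genotypes turned to -0.0025. Depth limits Ciita, H2-Eb1 and, in neo cultures, H2-Aa and H2-Ob, which had few counts.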
